A study of Mus musculus with 27 samples.

Results

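The change in gene expression between day 5 and day 7 of culture was measured in mouse thyroid gland organoids (mTGOs) that had not been irradiated. The comparison rests on 6 of the 27 libraries of the series, 3 at day 5 and 3 at day 7, chosen by the day and dose in the table's column names. The study grew organoids for 5 days, irradiated some of them with 2, 4 or 7 Gy of photons and collected RNA at days 5, 7 and 11. Both groups used here were labelled as non-irradiated thyroid gland organoids from C57BL/6 mice aged 8 to 12 weeks, and the study's methods give female animals. All groups shared a Matrigel culture in DMEM/F12 with EGF, FGF2, the ROCK inhibitor Y27632 and B27. The labels number mice 1 to 3 at each day, the design text speaks of 4 mice, and the columns carry 3 culture identifiers, mTG11, mTG12 and mTG14, which were not matched to the mouse numbers. Each culture had 1 library per day, and the culture was used as a replicate block.

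In the thyroid, follicular cells make thyroid hormone on the protein thyroglobulin, under the transcription factors Nkx2-1, Pax8, Foxe1 and Hhex. When the gland is dissociated and single cells are embedded in a basement membrane matrix, some cells divide and form cystic or solid spheres. Epithelial cells in such matrix cultures commonly pass through a wound-like state, with keratins of basal and stratified epithelium, before they polarise, seal their junctions and differentiate. Days 5 and 7 cover early sphere growth, and day 11 is the later state that the same cultures reached.

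Libraries were made with Smart3SEQ, which counts reads at the 3′ ends of transcripts, and held 2630564 to 3507863 counts at day 5 and 3772966 to 3886276 at day 7. Levels are given as CPM, which are counts per 1000000 after each total was multiplied by its TMM factor from edgeR, and 3 counts in 1 library stood for 0.794 to 1.05 CPM at day 5 and 0.78 to 0.828 CPM at day 7. Such limits cover counting error only. Where 3 values follow each other, they are for mTG11, mTG12 and mTG14. The tissue label was checked against markers. Of the thyroid follicular genes, thyroglobulin (Tg) had 3.97 to 15.4 CPM at day 5 and 1.3 to 2.48 CPM at day 7, while Tshr, Slc5a5, Iyd, Pax8 and Hhex did not exceed 0.828 CPM in any of the 6 libraries. Nkx2-1 was present at 9.11 to 13.9 CPM and Foxe1 at 21.2 to 40 CPM. Krt14 and Krt6a, keratins of basal and stratified epithelium, had 3419 to 6992 CPM and 3985 to 6844 CPM. The libraries thus carried 2 thyroid transcription factors with little RNA of the hormone synthesis genes.

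Growth from day 5 to day 7 changed 4607 of the 18442 genes tested, which is 25.0% (edgeR's quasi-likelihood test with the culture as replicate block, Benjamini-Hochberg adjusted p under 0.05). Of these, 2579 genes, 14.0% of those tested, were higher at day 7 and 2028, or 11.0%, were lower. The larger changes were mostly rises, since 1055 genes rose and 451 fell by at least 1 on the log2 scale, and 369 rose and 99 fell by at least 2. All 3 libraries of day 7 lay above all 3 of day 5 for 3747 genes, 20.3% of those tested, and below them for 3256, or 17.7%. The balance between rises and falls depended on scaling. TMM moved the log2 fold changes up by a median of 0.15, to a median over all genes of 0.04, and without TMM factors 1805 of 4928 called genes were higher (36.6%, against 56% with TMM). Leaving out mTG14 of day 5 left 1295 genes lower at day 7, and leaving out mTG14 of day 7 left 1335.

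**Figure D1:**
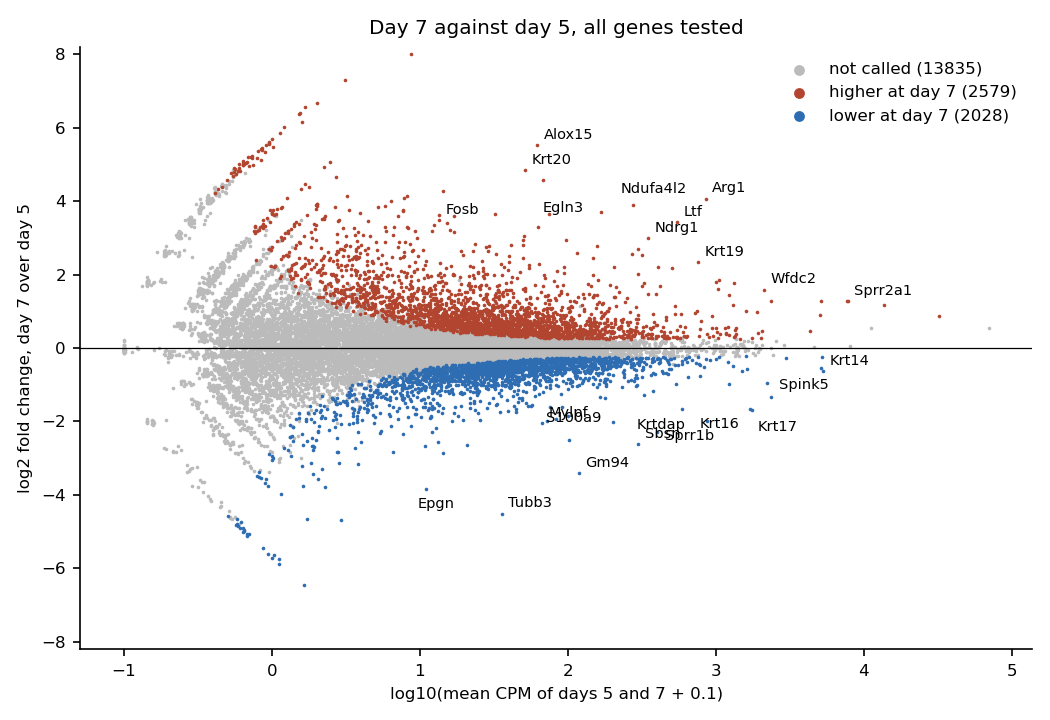
Each point is 1 of the 18442 genes tested. The horizontal axis is the log10 of the mean CPM of days 5 and 7 plus 0.1 and the vertical axis the log2 fold change of day 7 over day 5 (limited to ±8); 2579 genes were higher at day 7, 2028 were lower, and the named genes lie at the edges of both clouds.

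A program of genes that respond to low oxygen, with glycolysis, stood among the largest rises. Of 34 tested genes of glycolysis and hypoxia 24 rose, 1 fell and 9 were not called, with a median log2 fold change of 0.79 beside 0.04 for all genes. The summed level of the list was 6021 to 6650 CPM at day 5 and 9140 to 10237 CPM at day 7, so the days did not overlap. Under low oxygen the factor HIF-1 is no longer marked for destruction by prolyl hydroxylases, and it then switches on glycolytic enzymes, pH regulators and those same hydroxylases. Egln3, one of these prolyl hydroxylases, had 22.1, 22.4 and 27.3 CPM at day 5 and 307, 256 and 377 CPM at day 7. Every culture rose by about an order of magnitude, a 13-fold change by the fit (log2 3.70 ± 0.13 SE, adjusted p = 3.53e-09). Ndrg1, a stress-responsive cytoplasmic protein, went from 54.2, 99.9 and 80.7 CPM to 553, 600 and 701 CPM (log2 3.00 ± 0.12, adjusted p = 4.45e-09). Bnip3, a mitochondrial receptor for autophagy, went from 8.82, 14.4 and 11.4 CPM to 92.8, 129 and 122 CPM (log2 3.31 ± 0.13, adjusted p = 4.45e-09). In none of these genes did a day 7 library come near a day 5 library, though Egln3 was picked under a rule that required no overlap.

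The list did not rise evenly. Its larger rises also included the lactate exporter Slc16a3 (log2 3.05 ± 0.15), the carbonic anhydrase Car9 (3.72 ± 0.31) and the oxidoreductase Ero1a (2.79 ± 0.13). Pdk1, which keeps pyruvate out of the citrate cycle, rose by 1.36 ± 0.11. Ndufa4l2, a hypoxia-inducible relative of a respiratory chain subunit, rose from 22, 36 and 47 CPM to 431, 575 and 550 CPM. The glycolytic enzymes themselves moved less. Pgk1 rose by 0.98 ± 0.08, Gpi1 by 0.79 ± 0.09, Aldoa by 0.74 ± 0.08 and Tpi1 by 0.63 ± 0.09 on the log2 scale, and Ldha by 0.25 ± 0.08 with an adjusted p of 0.0334, which was 0.419 without TMM factors and 0.0684 with DESeq2. Pkm (0.11 ± 0.07), Eno1 (0.18 ± 0.08), Pgam1 (0.18 ± 0.09), the glucose transporter Slc2a1 (0.09 ± 0.08) and the hexokinases Hk1 and Hk2 were not called. The 1 gene that fell was Ddit4, an inhibitor of mTOR (log2 -0.57 ± 0.10, adjusted p = 0.000862). Between days 7 and 11 the list turned, with 23 of the 34 lower at day 11 and 2 higher, against 13.3% lower and 11.5% higher over all genes. Egln3 then changed by -0.86, Bnip3 by -1.24, Slc16a3 by -2.25 and Ndufa4l2 by -2.89 on the log2 scale. The intervals share the day 7 libraries, so their values stand side by side only.

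The promoters of Bnip3 and Egln3 are shown because these genes carried the hypoxia result. The sequences are the 150 bases before the RefSeq start site of build GRCm38.p6, read 5′ to 3′ along the gene, at chr7:138909507-138909656 on the minus strand and chr12:54203875-54204024 on the minus strand. Capitals mark ACGTG or GCGTG, the letters of the core hypoxia response element, on either strand.
Bnip3: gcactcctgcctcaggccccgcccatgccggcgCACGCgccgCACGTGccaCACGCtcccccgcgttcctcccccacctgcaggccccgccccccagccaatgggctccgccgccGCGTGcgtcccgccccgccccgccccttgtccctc
Egln3: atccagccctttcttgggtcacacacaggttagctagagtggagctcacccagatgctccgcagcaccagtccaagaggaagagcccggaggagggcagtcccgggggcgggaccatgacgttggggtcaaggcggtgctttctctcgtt
Bnip3 held 5 matches in this window, 2 of which overlap in a palindrome, and Egln3 held 0 there and 1 further out, at 229 bases before the start site. In the 250 bases before the start site 24 of 32 matched promoters of the list (75%) held a match, and so did 38.6% of 27025 promoters of all genes and 54.4% of the promoters of genes tested. Most other lists had a smaller share, but some had a larger one, such as 81.8% of 11 Notch promoters. Such short letters occur often, and a match is a description, not a binding site.

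Most simple epithelial genes rose. Of 24 tested simple epithelium genes 17 rose and 2 fell (median log2 1.17), against 14.0% and 11.0% over all genes. Krt20, a keratin of intestinal and urinary tract surfaces, had 4.3, 3.14 and 2.91 CPM at day 5 and 90.5, 119 and 90.2 CPM at day 7 (log2 4.84 ± 0.18, adjusted p = 3.53e-09). Krt19, a keratin of ducts and simple epithelia, had 312, 234 and 196 CPM and then 1738, 827 and 1265 CPM (log2 2.34 ± 0.14, adjusted p = 9.13e-08). Krt7, Krt8 and Krt18, the other main simple keratins, rose by 2.69 ± 0.19, 1.42 ± 0.14 and 1.39 ± 0.11. For these 5 keratins every day 7 library lay above every day 5 library, as for 20.3% of all genes tested. The rule for the largest rises required this of Krt20. The epithelial adhesion molecule Epcam went from 186 to 227 CPM at day 5 to 578 to 590 CPM at day 7, and the apical membrane protein Prom1 from 5.03 to 6.61 CPM to 37.3 to 47.3 CPM. The 2 genes that fell, Ovol1 (-1.51 ± 0.23) and Ovol2 (-1.27 ± 0.25), encode transcription factors that hold cells in an epithelial state.

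The list of stress keratins and epithelial repair genes was mixed, with 7 of 22 higher and 9 lower (median log2 0.14, and -0.01 without TMM factors). Its rises included Il33, Anxa1 (1.02 ± 0.10) and Emp1 (0.94 ± 0.12). Its keratins of the wounded epidermis fell. Krt16 had 2126, 2722 and 2938 CPM at day 5 and 762, 913 and 772 CPM at day 7 (log2 -1.66 ± 0.19, adjusted p = 2.87e-05). Krt17 had 2814, 2438 and 2753 CPM and then 803, 839 and 860 CPM (log2 -1.68 ± 0.08, adjusted p = 1.26e-08). By the fit Krt16 kept 0.316 and Krt17 0.313 of its day 5 level, with no overlap between days. Krt6b fell by 0.95 and Krt6a by 0.55 on the log2 scale, though these paralogs share reads and their separate values are uncertain. Among the basal keratins Krt14 had 5600, 6594 and 6992 CPM and then 3419, 5192 and 4137 CPM (log2 -0.62 ± 0.13, adjusted p = 0.00288 with the block and above 0.05 without it). Krt5 fell by 0.25 ± 0.08, a call that did not survive in 5 of the 6 leave-one-out fits, without the block or with the fibroblast covariate. Krt15, a keratin of slow-cycling basal cells, rose instead (0.95 ± 0.15), as did the nerve growth factor receptor Ngfr (1.06 ± 0.11), while the basal transcription factor Trp63 had 113 to 148 CPM at day 5 and 130 to 144 CPM at day 7 (adjusted p = 0.694). The basal list as a whole was mixed, with 3 of 18 higher and 5 lower, or 3 and 2 without the block. With the block 16.7% were higher and 27.8% lower, beside 14.0% and 11.0% over all genes.

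**Figure D2:**
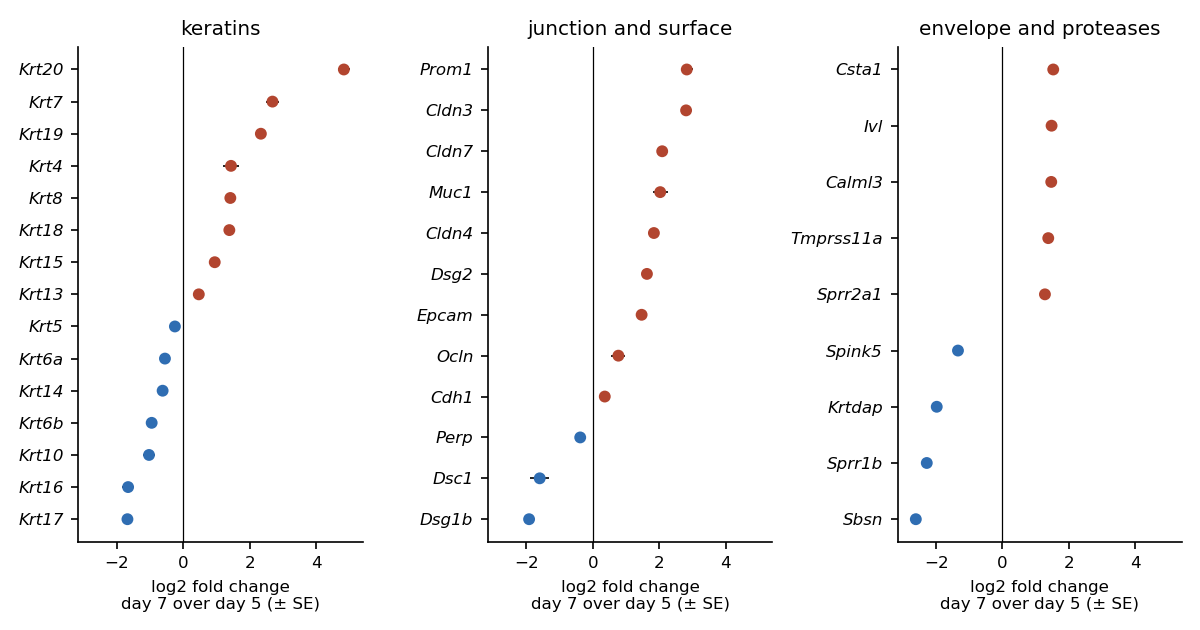
Log2 fold change of day 7 over day 5 for keratins, for junction and surface genes and for envelope and protease genes, with bars of ± 1 SE that are mostly smaller than the points. Red points rose and blue points fell at an adjusted p under 0.05; the simple keratins and claudins lie to the right and Krt16, Krt17, Dsg1b, Sprr1b and Sbsn to the left.

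Tight junction genes rose broadly. Of 23 tight junction genes 19 rose and none fell (median log2 0.77); without TMM factors 11 rose and none fell, and DESeq2 also gave 11 rises. Tight junctions seal the space between polarised epithelial cells, and claudins form the seal. Cldn3 had 18.2, 11.2 and 8.21 CPM at day 5 and 118, 60.4 and 81.1 CPM at day 7 (log2 2.81 ± 0.16, adjusted p = 5.24e-08). Cldn7 rose by 2.09 ± 0.12 and Cldn4 by 1.84 ± 0.15. Occludin (Ocln), which the study follows as a maturation gene, had 10.6, 6.98 and 7.94 CPM and then 13.3, 13 and 17.1 CPM (log2 0.77 ± 0.21, adjusted p = 0.0143), a call lost with DESeq2 (adjusted p = 0.104) and without mTG14 of either day. Of 14 desmosomal genes, which rivet stratified epithelium together, 6 fell (42.9%) and 2 rose (14.3%). Over all genes 11.0% fell and 14.0% rose, so the share of rises was near that of all genes. The suprabasal cadherins fell, Dsg1b from 129, 123 and 144 CPM to 38.6, 28.8 and 37.7 CPM (log2 -1.92 ± 0.11) and Dsc1 by 1.60 ± 0.29 on the log2 scale. The cadherin of simple epithelium Dsg2 rose from 18.2, 29 and 27.4 CPM to 64.5, 90.5 and 77.5 CPM (log2 1.63 ± 0.13), and the plaque protein Pkp2 rose by 1.07 ± 0.21. Reads of Dsg1a and Dsg1b may be split between the paralogs. Of 25 hemidesmosome, laminin and integrin genes, which fix cells to the matrix, 8 rose and 1 fell, against 6 and 3 without TMM factors. The fall was Itga6, whose days overlapped and whose adjusted p was 0.111 without the block.

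Genes of the cornified layer parted into opposite directions. Of 31 tested suprabasal and cornified envelope genes 14 rose and 7 fell, and without the replicate block 9 rose and 6 fell. Suprabasin (Sbsn) had 473, 545 and 530 CPM at day 5 and 104, 58.3 and 93.3 CPM at day 7 (log2 -2.61 ± 0.16, adjusted p = 1.07e-07). Krtdap, a secreted keratinocyte peptide, fell from 1427, 1107 and 1661 CPM to 378, 254 and 437 CPM (log2 -1.98 ± 0.16), and the envelope precursor Sprr1b from 548, 730 and 705 CPM to 146, 126 and 133 CPM (log2 -2.28 ± 0.12, adjusted p = 3.4e-08). All 3 had no overlap between days, as had 17.7% of all genes tested in this direction. For Sbsn and Sprr1b the rule for the largest falls required this. The related precursors Sprr2a1, Sprr2a2 and Sprr2a3 rose by 1.28 to 1.29 with SE of 0.08, from 4290 to 4771 CPM to 10211 to 12166 CPM for Sprr2a1, but these copies are nearly identical and share reads, so they are 1 signal. Involucrin (Ivl) rose by 1.48 ± 0.14, the calmodulin-like Calml3 by 1.47 ± 0.10, and the oesophageal keratin Krt4 by 1.44 ± 0.23. Loricrin (Lor, 77.9 to 145 and then 42.5 to 121 CPM) and Sprr3 were not called. Of 21 kallikreins and squamous proteases 7 rose and 7 fell. The protease inhibitor Spink5 fell from 3218, 3422 and 3537 CPM to 1315, 1436 and 1266 CPM (log2 -1.34 ± 0.09), and Klk10 fell by 1.17 ± 0.19. The cysteine protease inhibitor Csta1 and the serine protease Tmprss11a rose by 1.53 ± 0.10 and 1.38 ± 0.13. The calprotectin subunits S100a8 and S100a9 fell by 2.51 ± 0.16 and 2.01 ± 0.23. Between days 7 and 11 the envelope list fell broadly, with 22 of 31 lower and 1 higher, and the rises of Ivl and Tmprss11a were followed by log2 changes of -1.11 and -3.37.

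Mucosal secretory genes formed another rising group. Of 35 tested genes of secretory and mucosal defence 20 rose and 2 fell (median log2 1.41). Without the replicate block 12 rose and 1 fell. Lactoferrin (Ltf), an iron-binding antimicrobial protein of secretions, had 87.6, 101 and 86.4 CPM at day 5 and 1315, 802 and 908 CPM at day 7 (log2 3.44 ± 0.17, adjusted p = 1.85e-08), and rose by a further 3.02 to day 11. The epididymal and airway secretory protein Wfdc2 had 1225, 1237 and 717 CPM and then 4076, 2853 and 2627 CPM (log2 1.59 ± 0.13). Pigr, which carries immunoglobulin A across epithelium, went from 13.1, 15.5 and 5.96 CPM to 100, 111 and 55.2 CPM, and the membrane mucin Muc4 from 4.63, 1.75 and 2.91 CPM to 39, 16 and 31 CPM. The days did not overlap for any of these 4 genes, which the rule for the largest rises required of Ltf. Over all genes tested 20.3% had no overlap in this direction. The trefoil peptide Tff1 rose more unevenly, from 8.76, 5.59 and 3.18 CPM to 247, 25.9 and 122 CPM (log2 4.57 ± 0.43). The antiprotease Slpi fell from 704, 982 and 1005 CPM to 330, 196 and 335 CPM (log2 -1.65 ± 0.20), and the airway secretoglobin Scgb3a2 fell by 1.06 ± 0.17, with overlap between days and an adjusted p of 0.164 without the block.

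Multiciliated cell genes showed no rise as a list. Of 27 tested 2 rose, 1 fell and 24 were not called, below the 14.0% higher and 11.0% lower over all genes. Of the 27, 17 had under 10 counts over days 5 and 7 and passed the filter only through day 11. The summed level was 33.2 to 50.7 CPM at day 5 and 35.5 to 42 CPM at day 7, so the days overlapped. The 2 rises were Foxj1 and Cfap43. Foxj1, the master regulator of motile cilia, had 0 counts in all 3 day 5 libraries and 2.08, 2.76 and 0.276 CPM at day 7, which is at least 5.52-fold higher against 3 counts over the day 5 group (adjusted p = 0.00427, and 0.0834 with the fibroblast score as covariate). Cfap43, an axonemal protein, had 1.04 to 1.93 CPM at day 7 and at most 0.331 CPM at day 5 (adjusted p = 0.0147, and 0.102 with that covariate), and it overlaps Gsto1, an abundant gene, on the opposite strand. Its call was also lost without mTG14 of day 5 and without mTG12 of day 7.

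Cell cycle genes fell as a body. Of 48 tested genes of mitosis and G2/M 42 fell and none rose (median log2 -0.79), and of 44 genes of DNA replication and G1/S 32 fell and none rose (median -0.63), beside 11.0% of all genes lower. Top2a, which untangles replicated DNA, had 380, 310 and 355 CPM at day 5 and 214, 171 and 184 CPM at day 7 (log2 -0.88 ± 0.08, adjusted p = 4.37e-06). The ubiquitin-conjugating enzyme of mitotic exit Ube2c had 161, 161 and 151 CPM and then 80.9, 72.5 and 82.9 CPM (adjusted p = 1.32e-05). Among replication genes the helicase subunit Mcm5 had 88.3, 83.8 and 87.2 CPM and then 49.7, 36.4 and 41.4 CPM (log2 -1.02 ± 0.12), and Rrm2, the regulated subunit of ribonucleotide reductase, fell by 1.18 ± 0.11. The days did not overlap in any of these 4 genes. The summed level of the mitosis list was 3157 to 3702 CPM at day 5, 1902 to 2166 CPM at day 7 and 608 to 720 CPM at day 11. In bulk RNA, fewer dividing cells and less of these transcripts in each cell cannot be told apart.

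The promoters of these genes are shown because the 2 lists moved nearly as 1 body. The windows are again the 150 bases before the start site in GRCm38.p6. For Top2a (chr11:99024190-99024339 on the minus strand) and Birc5 (chr11:117849087-117849236 on the plus strand) capitals mark CCAAT and TTTGAA or TTCGAA (the cell cycle homology region) on either strand. For Hells (chr19:38930840-38930989 on the plus strand) they mark TTTCCCGC or TTTGGCGC, letters bound by E2F factors.
Top2a: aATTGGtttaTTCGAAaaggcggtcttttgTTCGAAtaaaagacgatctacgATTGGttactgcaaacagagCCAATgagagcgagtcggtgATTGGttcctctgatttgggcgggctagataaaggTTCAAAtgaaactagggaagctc
Birc5: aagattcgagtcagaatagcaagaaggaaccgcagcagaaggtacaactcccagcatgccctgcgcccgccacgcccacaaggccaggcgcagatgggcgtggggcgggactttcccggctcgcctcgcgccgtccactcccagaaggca
Hells: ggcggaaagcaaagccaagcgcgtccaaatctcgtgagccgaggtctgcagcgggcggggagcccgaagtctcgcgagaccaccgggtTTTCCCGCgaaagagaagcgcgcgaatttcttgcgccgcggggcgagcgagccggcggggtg
Top2a held 7 matches in this window, Hells held 1 at 62 bases before the start site, and Birc5, which fell by 0.84 ± 0.09, held none. Of 39 matched mitosis promoters 74.4% held CCAAT and 33.3% the homology region, against 34.5% and 17.4% of all promoters. Among promoters of genes tested the shares were 36.4% and 12.8%. CCAAT was more frequent in cholesterol synthesis (88.2%), MHC class I (84.6%) and endoplasmic reticulum folding genes (81.8%), and less frequent in all other lists. The homology region was more frequent in metal-handling (45.5% of 11) and stem and progenitor promoters (40% of 10), and less frequent in all other lists. Of 36 replication promoters 19.4% held the E2F letters, against 1.35% of all promoters and 2.4% of those of genes tested.

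The list of CDK inhibitors and D cyclins was mixed, while its inhibitors Cdkn2b and Cdkn2a rose. Of 15 CDK inhibitors and D cyclins 6 rose and 3 fell (median log2 0.01), or 5 and 4 without TMM factors. Cdkn2b (p15), an inhibitor of CDK4 and CDK6, had 19, 30.7 and 24 CPM at day 5 and 73.6, 74.5 and 74.8 CPM at day 7 (log2 1.60 ± 0.14, adjusted p = 3.21e-06). Its neighbour Cdkn2a had 11.9, 21.7 and 11.1 CPM and then 28.1, 50.5 and 43.9 CPM (log2 1.48 ± 0.18, adjusted p = 4.73e-05). For both the days did not overlap. Cdkn1b, another inhibitor, rose by 0.47 ± 0.10, with an adjusted p of 0.054 with DESeq2, and the D cyclin Ccnd2, which drives the cycle, rose by 0.48 ± 0.08. Cdkn1a (p21), which the study uses for senescence, had 256, 349 and 301 CPM and then 223, 257 and 278 CPM (adjusted p = 0.0674). Of 20 p53 targets 7 fell and 1 rose (median log2 -0.31), or 10 and 0 without TMM factors, among the falls Phlda3 (-0.72 ± 0.10), Ccng1 (-0.69 ± 0.11) and the nuclease Aen (-0.87 ± 0.13). Of 23 genes of senescence and secreted factors 8 rose and 2 fell, and without TMM factors 7 rose and 6 fell. They included Igfbp3, from 180, 222 and 149 CPM to 1006, 669 and 811 CPM (log2 2.17 ± 0.14), and the cytokine Il1a (2.68 ± 0.31), while the chemokine Cxcl1 (-0.71 ± 0.20) and the lamin Lmnb1 (-0.45 ± 0.10) fell. The call of Lmnb1 was lost without the block (adjusted p = 0.074), and that of Cxcl1 with the fibroblast covariate (0.0884) and when mTG11 of either day, mTG12 of day 7 or mTG14 of day 7 was left out.

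Ribosome biogenesis fell nearly throughout, without the ribosomal proteins. Of 45 genes that build ribosomes in the nucleolus 37 fell and none rose (median log2 -0.68). Heatr1, needed for transcription of ribosomal RNA, had 45.3, 44.4 and 39.4 CPM at day 5 and 15.6, 15.2 and 14.9 CPM at day 7 (log2 -1.49 ± 0.14, adjusted p = 6.37e-06). Nop58, of the complex that methylates ribosomal RNA, had 365, 324 and 313 CPM and then 190, 174 and 175 CPM (log2 -0.89 ± 0.08). Of 79 cytosolic ribosomal protein genes 4 fell and 2 rose, below the shares over all genes, with a median of -0.03. Without TMM factors 20 of them fell and none rose. Of 30 translation factors and tRNA synthetases 13 fell (21 without TMM factors) and 1, the translation inhibitor Eif4ebp1 (0.53 ± 0.10), rose. Myc, a driver of ribosome synthesis, had 61.5, 61.9 and 52.9 CPM and then 39.5, 42.3 and 43.7 CPM (log2 -0.49 ± 0.12, adjusted p = 0.00834). Unlike the cell cycle lists, ribosome biogenesis moved little afterwards, with 4 of 45 higher and 2 lower at day 11 than at day 7 and a median of 0.06.

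**Figure D3:**
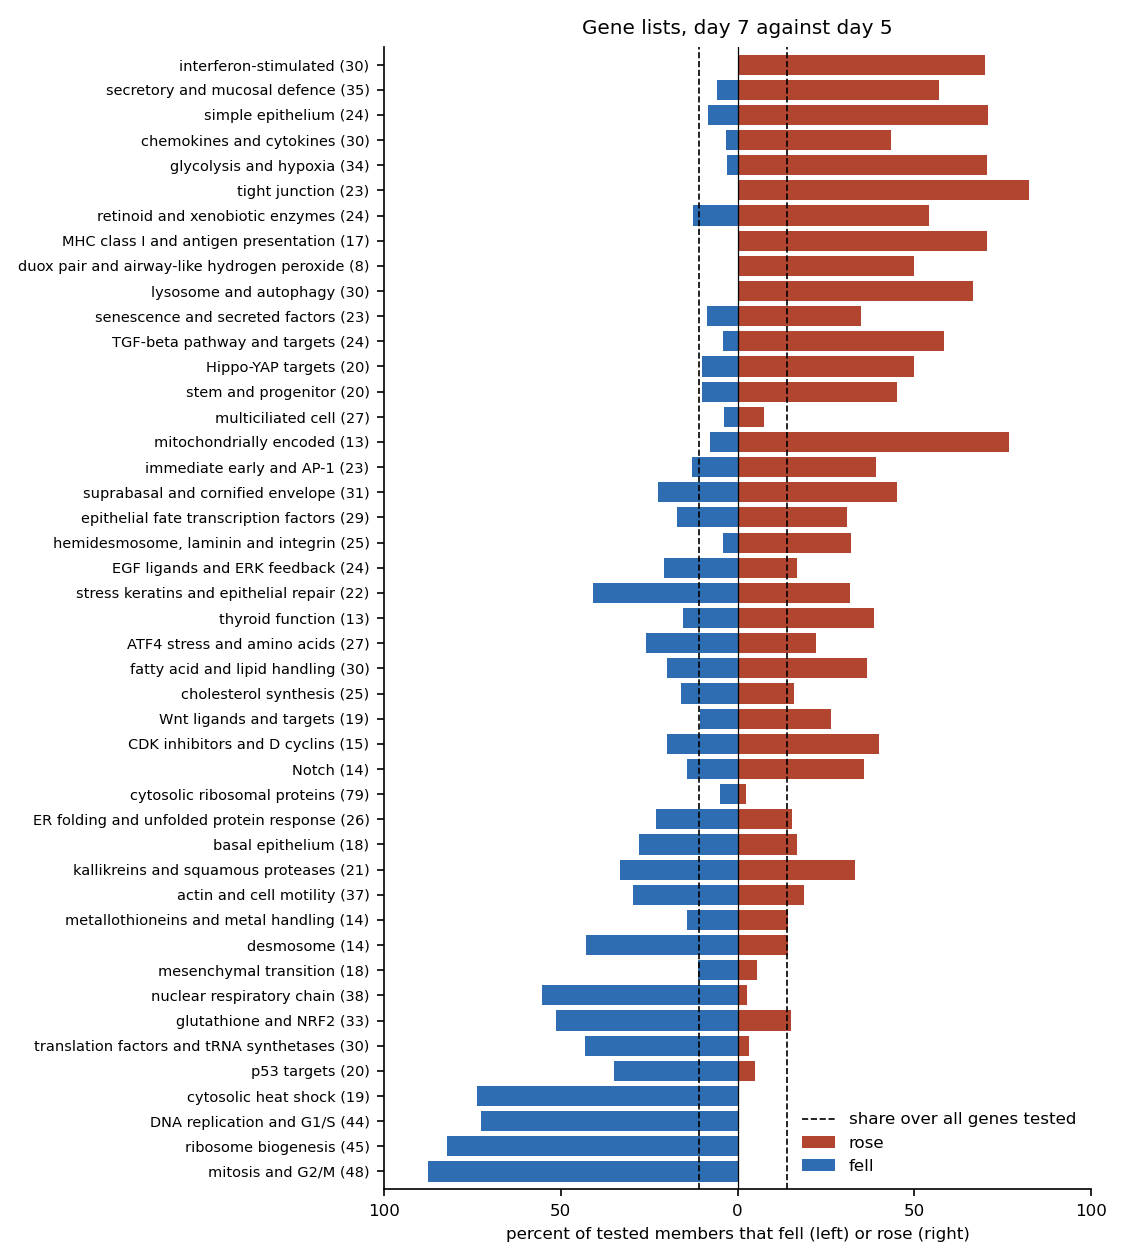
For each of 45 gene lists, the percent of tested members (number in brackets) that rose (red, right) or fell (blue, left) from day 5 to day 7, ordered by the median log2 fold change. Dashed lines mark the 14.0% higher and 11.0% lower over all genes tested; interferon-stimulated genes stand at the top and mitosis and G2/M genes at the bottom.

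Chaperone genes also fell. Of 19 genes in the cytosolic heat shock list, which also holds the mitochondrial Hspd1, 14 fell and none rose (median log2 -0.40). With 1 library left out 8 to 12 fell. Hspd1, the mitochondrial chaperonin, had 265, 222 and 241 CPM at day 5 and 130, 115 and 109 CPM at day 7 (log2 -1.04 ± 0.08), though it overlaps its partner Hspe1 on the opposite strand. Hspa8, the constitutive cytosolic chaperone, had 974, 1011 and 969 CPM and then 577, 590 and 594 CPM (log2 -0.75 ± 0.08, adjusted p = 1.16e-05). Hsph1 fell by 1.20 ± 0.11. Of 38 nuclear genes of the respiratory chain 21 fell and 1 rose (median -0.27). The falls numbered 30 without TMM factors, 8 with the fibroblast covariate and 8 to 15 with 1 library left out. Among them were cytochrome c (Cycs, -0.87 ± 0.10) and Cox5b (-0.58 ± 0.08). Of 13 protein genes on the mitochondrial genome 10 rose and 1 fell (median 0.38), with COX1 going from 1293, 1191 and 1360 CPM to 2365, 2556 and 2650 CPM (log2 0.98 ± 0.08). Without TMM factors 5 of the 13 rose and 1 fell, and with the fibroblast covariate 3 rose and none fell. The mitochondrial ribosomal RNAs took 2.76% to 4.27% of counts at day 5 and 4.8% to 6.84% at day 7.

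Metabolic lists outside glycolysis were mixed. Of 33 glutathione and NRF2 genes 17 fell and 5 rose (median log2 -0.29), and without the block 10 fell and 4 rose. The antioxidant enzyme Nqo1 fell by 0.89 ± 0.14, the cystine carrier Slc7a11 by 1.01 ± 0.10 and Gstm1 by 1.29 ± 0.10 on the log2 scale, while Gsto1 rose from 3335, 4190 and 3127 CPM to 6928, 6062 and 6972 CPM (0.90 ± 0.13) and Prdx6 rose by 1.14 ± 0.12. Of 30 fatty acid genes 11 rose and 6 fell (6 and 5 with DESeq2). The rises included the mitochondrial dehydrogenases Acadl (1.08 ± 0.09) and Acadm (1.02 ± 0.12), which break fatty acids down, and the falls Elovl6 (-0.64 ± 0.09), which lengthens them, and the carrier Fabp5 (-0.99 ± 0.15). Of 25 cholesterol synthesis genes 4 rose and 4 fell (2 and 4 without the block), 16% each beside 14.0% and 11.0% over all genes. All 25 were lower at day 11 than at day 7. Of 27 ATF4 and amino acid genes 6 rose and 7 fell, with serine synthesis lower (Phgdh -0.89 ± 0.12, Psat1 -0.83 ± 0.10) and the stress protein Nupr1 higher, from 67.1, 91.5 and 62.2 CPM to 299, 352 and 355 CPM. Of 26 genes of protein folding in the endoplasmic reticulum 4 rose (15.4%) and 6 fell (23.1%). Without TMM factors 2 rose and 12 fell. Of 30 lysosome and autophagy genes 20 rose and none fell (median 0.50), among them cathepsin L (Ctsl, 1.01 ± 0.11), Glb1 (1.17 ± 0.16), the β-galactosidase of the lysosome, and Map1lc3a (0.80 ± 0.10). Arginase (Arg1), which splits arginine into ornithine and urea, had 54.2, 151 and 97.9 CPM at day 5 and 1411, 1599 and 1841 CPM at day 7 (log2 4.07 ± 0.18, adjusted p = 1.01e-08). Of the 14 metal-handling genes 2 rose and 2 fell, 14.3% each and near the shares over all genes. The transferrin receptor Tfrc, which brings iron in, fell from 71.1, 74.7 and 58 CPM to 23.1, 24 and 16.8 CPM.

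Of 24 retinoid and xenobiotic enzyme genes 13 rose and 3 fell (median log2 0.77). Vitamin A enters cells through Stra6, and Dhrs3 can return retinaldehyde to retinol. Both genes rose. Dhrs3 had 11.3, 35.3 and 21.8 CPM at day 5 and 171, 168 and 177 CPM at day 7 (log2 2.93 ± 0.22, adjusted p = 6.81e-07). Stra6 had 4.96, 2.79 and 0.265 CPM and then 21.6, 43.9 and 28.7 CPM (3.60 ± 0.40). The alcohol dehydrogenase Adh7, which oxidises retinol, fell by 1.32 ± 0.09 and the retinoic acid carrier Crabp2 by 0.87 ± 0.15 on the log2 scale.

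**Figure D4:**
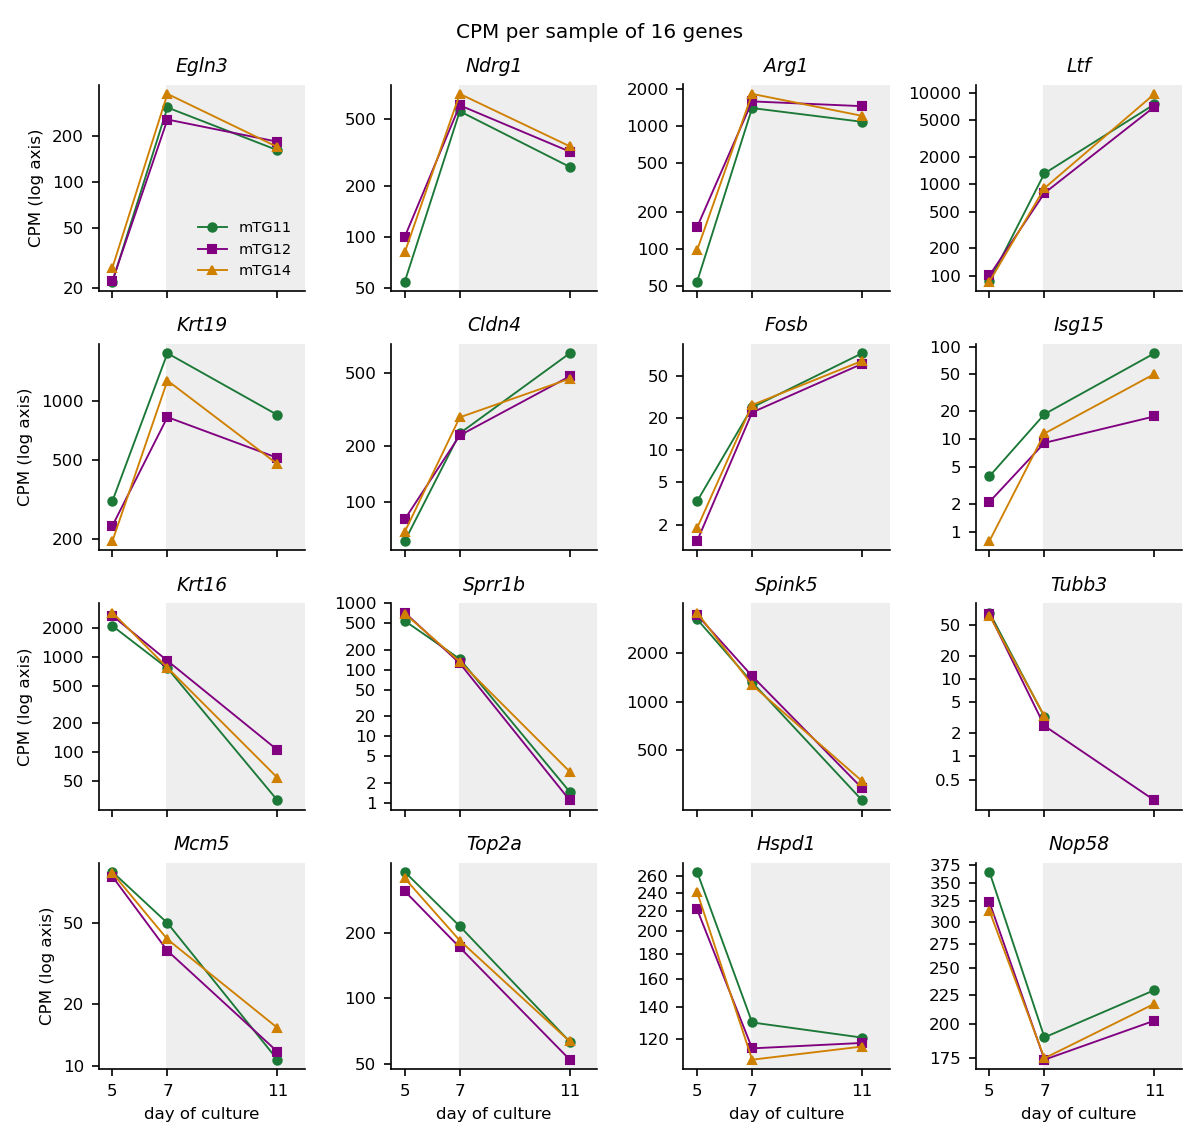
CPM (log axis) of 16 genes at days 5, 7 and 11 in the cultures mTG11, mTG12 and mTG14, with 1 point per library and lines joining the libraries of a culture; a library at 0 has no point. The shaded part follows day 7: Egln3, Ndrg1 and Krt19 peaked at day 7, Ltf, Cldn4, Fosb and Isg15 rose at each step, Krt16, Sprr1b, Spink5, Mcm5 and Top2a fell at each step, and most of the fall of Hspd1 and Nop58 was over by day 7.

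Interferon-stimulated genes rose from near the detection limit. Of 30 tested 21 rose and none fell, with a median log2 fold change of 2.58, or 2.19 with the genes at 0 counts set to their bound. Within a culture the medians were 1.80, 1.01 and 1.24 on the log2 of CPM plus 1. The added 1 shrinks changes at such low levels, so these medians are not comparable with those of the fit. Ifit3b, Mx2 and Oas3 had 0 counts at day 5 and passed the filter only through later days. These genes are switched on when cells respond to interferon, and many of their products sense or block viral RNA. The levels were low. Isg15, a ubiquitin-like modifier, had 3.97, 2.1 and 0.794 CPM at day 5 and 18.6, 9.11 and 11.5 CPM at day 7 (log2 2.61 ± 0.39, adjusted p = 0.00028). The RNA sensor Ddx58 had 5.29, 2.79 and 5.03 CPM and then 18.2, 18.2 and 17.1 CPM (log2 2.00 ± 0.21, adjusted p = 1.95e-05), and Ifih1, a related sensor, rose by 1.97 ± 0.24. Irf7, which amplifies the response, had 0.661, 1.75 and 0.794 CPM and then 16.4, 7.73 and 6.9 CPM (3.29 ± 0.50). Ifit3b had 0 counts at day 5 and 2.48 to 3.25 CPM at day 7, at least 9.44-fold higher, though it shares reads with Ifit3. The summed level of the list was 63.7 to 80.6 CPM at day 5 and 187 to 310 CPM at day 7, the highest value being in mTG11. Without the block 15 rose, and 22 of the 30 rose again between days 7 and 11. Of 17 genes of antigen presentation by MHC class I and its partners 12 rose and none fell (median 0.76), with H2-D1 going from 98.8, 109 and 124 CPM to 197, 162 and 178 CPM, though the H2 genes share reads.

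The promoters of Isg15 (chr4:156200819-156200968 on the minus strand) and Ifit1 (chr19:34640739-34640888 on the plus strand) are shown as examples of this list, chosen after their values were seen. Capitals mark AAANNGAAA, letters of the interferon-stimulated response element, on either strand of the 150 bases before the start site in GRCm38.p6.
Isg15: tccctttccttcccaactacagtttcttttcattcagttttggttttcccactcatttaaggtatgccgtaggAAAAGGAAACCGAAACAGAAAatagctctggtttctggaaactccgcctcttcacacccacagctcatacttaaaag
Ifit1: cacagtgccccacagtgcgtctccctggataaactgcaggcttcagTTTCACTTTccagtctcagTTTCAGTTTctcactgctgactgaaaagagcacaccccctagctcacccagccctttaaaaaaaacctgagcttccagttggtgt
Isg15 held 3 overlapping matches, at 77, 71 and 65 bases before the start site, and Ifit1 held 2, at 104 and 85. Of 22 matched promoters of the list 15 (68.2%) held a match in 250 bases, against 9.52% of all promoters and 6.97% of those of genes tested. Ifit1 rose from 1.78, 1.32 and 1.65 CPM to 21.6, 11.1 and 11.8 CPM.

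**Figure D5:**
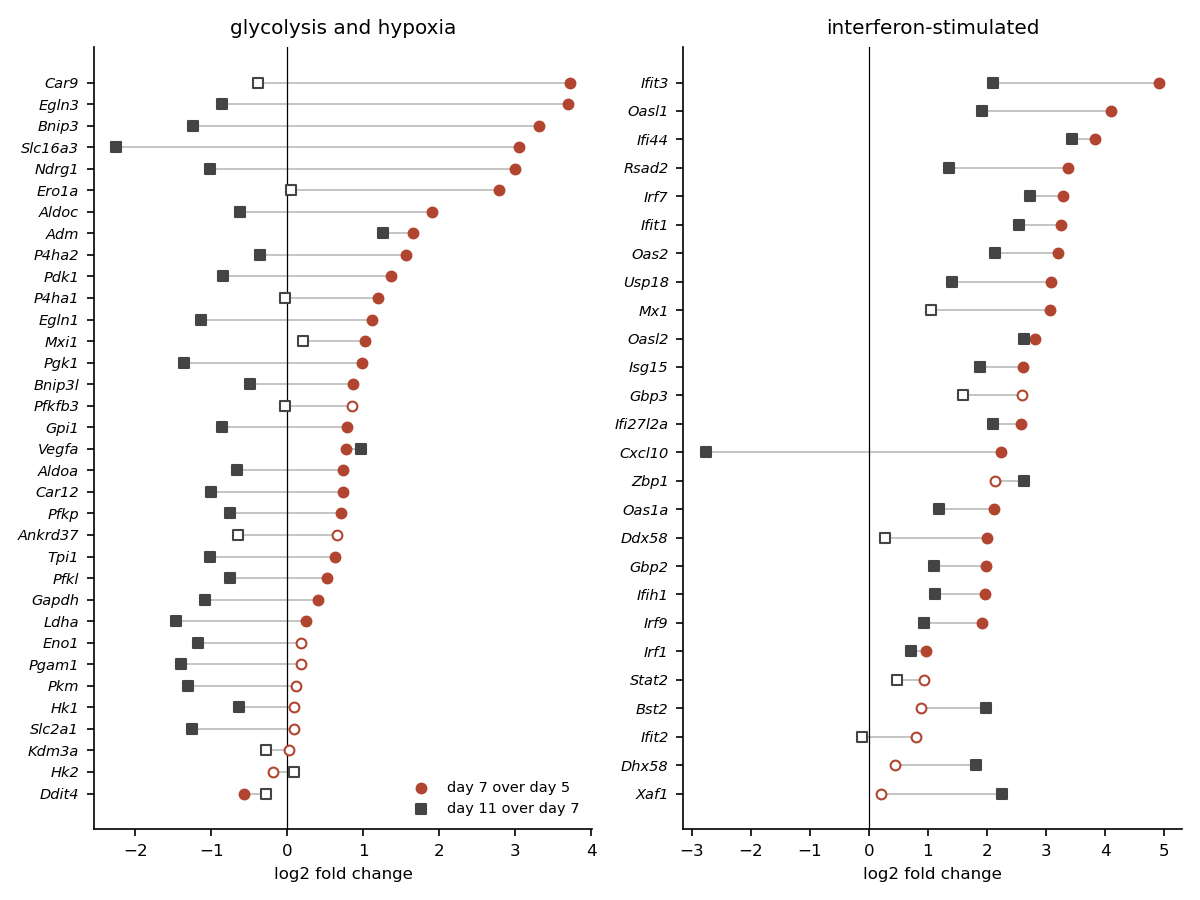
Log2 fold change of day 7 over day 5 (circles) and of day 11 over day 7 (squares) for the tested genes of glycolysis and hypoxia (left) and most of the interferon-stimulated genes with a count at day 5 (right). Filled symbols have an adjusted p under 0.05; most hypoxia squares lie left of 0, most interferon squares right of it, and both intervals share the day 7 libraries.

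Genes of signals between cells moved in several lists. Of 30 chemokines and cytokines 13 rose and 1, Cxcl1, fell (median log2 0.93). The alarmin Il33 had 52.2, 45.1 and 40.5 CPM at day 5 and 234, 256 and 256 CPM at day 7 (log2 2.44 ± 0.11, adjusted p = 1.01e-08), the mucosal chemokine Cxcl17 rose by 2.63 ± 0.16, and the NF-κB inhibitor and target Nfkbia rose by 1.36 ± 0.10. Of 24 EGF ligands and ERK feedback genes 4 rose and 5 fell (1 and 6 without TMM factors). The 4 and 5 were 16.7% and 20.8% of the list, beside 14.0% and 11.0% over all genes. The medium held EGF at both days. Epigen (Epgn), an EGF receptor ligand, had 12.9, 27.9 and 20.6 CPM and then 2.08, 1.1 and 0.828 CPM (log2 -3.85 ± 0.34, adjusted p = 3.32e-06), and the ligands Ereg and Areg fell by 0.82 ± 0.17 and 0.48 ± 0.11. Egfr itself had 44.1 to 49.5 CPM and then 39.5 to 69.2 CPM (adjusted p = 0.305). Of 24 TGF-β pathway genes and targets 14 rose and 1, the activin antagonist Fst, fell (median 0.47), with Id2 from 71.7, 70.4 and 73.7 CPM to 159, 187 and 210 CPM (1.36 ± 0.10). The TGF-β counts were 9 higher and 2 lower without TMM factors, 7 and 1 with DESeq2, and 5 and 1 with the fibroblast covariate. Activity of TGF-β was not tested, and list membership does not say in which direction it moves a gene such as Id2. Of 20 Hippo-YAP targets 10 rose and 2 fell (median 0.45). Tissue factor F3 rose by 2.12 ± 0.13 and Ccn2 by 1.35 ± 0.18, and Ankrd1 fell by 1.70 ± 0.30 on the log2 scale.

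In Notch signalling 5 of 14 genes rose (35.7%) and 2 fell (14.3%), beside 14.0% and 11.0% over all genes. DESeq2 gave 2 rises and 2 falls. The ligand Jag1 had 101, 109 and 103 CPM at day 5 and 150, 228 and 156 CPM at day 7 (log2 0.75 ± 0.11), the target Hey1 rose by 1.11 ± 0.24, and Nrarp, a feedback inhibitor, fell by 0.73 ± 0.09. Of 19 Wnt genes 5 rose (26.3%) and 2 fell (10.5%, near the 11.0% over all genes), among the falls Wnt4 (-0.86 ± 0.10). With DESeq2 2 rose and 2 fell. Of 23 immediate early and AP-1 genes 9 rose (39.1%) and 3 fell (13%). Fosb had 3.31, 1.4 and 1.85 CPM and then 25.2, 22.6 and 26.5 CPM (log2 3.49 ± 0.23, adjusted p = 2.04e-07), Fos had 74.4, 54.1 and 58.8 CPM and then 183, 225 and 227 CPM (1.75 ± 0.14) and Jun rose by 1.47 ± 0.14. Their relative Fosl1 fell from 20.8, 20.3 and 13.5 CPM to 5.98, 4.69 and 6.35 CPM (-1.67 ± 0.25), and Egr1 (177 to 343 and then 202 to 293 CPM) was not called. The exchange among AP-1 members was thus not shared by all early response genes.

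Klhl14, the gene at the centre of the study, had 0 counts in all 6 libraries, so it was not tested. It also had 0 counts in the unirradiated day 11 libraries of mTG11, mTG12 and mTG14. By counting error alone, 0 counts allow up to 0.31 CPM over the day 5 group and 0.27 CPM over the day 7 group. The study reports that mRNA of this gene, by qPCR, and its protein, by staining, increased during culture. Whether these libraries can capture its transcripts was not tested, so the 0 counts set no limit on its expression. Of the genes the study follows for thyroid maturation, Ocln alone passed the test at day 7. Nkx2-1 had 13.9, 9.43 and 11.1 CPM at day 5 and 11.7, 9.11 and 9.93 CPM at day 7 (log2 -0.15 ± 0.20, adjusted p = 0.625), and Bmp4, Pax8 and Hhex stayed at or below 0.828 CPM, under or near the limit of 3 counts. Tg had 4.3, 15.4 and 3.97 CPM and then 1.3, 2.48 and 1.66 CPM (log2 -2.04 ± 0.46, adjusted p = 0.00495), a call lost without the block. Of 13 tested thyroid function genes 5 rose and 2 fell, or 4 and 0 without the block. Duoxa2, a maturation factor of the oxidase that supplies hydrogen peroxide, had 0.265 to 0.349 CPM and then 3.38, 4.42 and 4.14 CPM (3.55 ± 0.52) and overlaps Duoxa1 on the opposite strand, while Duoxa1 itself had 37.4 to 42.3 CPM and then 40.8 to 48.8 CPM. The transcription factor Glis3 rose by 1.26 ± 0.22. Among 29 epithelial fate factors 9 rose and 5 fell (8 and 0 with DESeq2). Sox9 had 57.9, 69.4 and 115 CPM and then 145, 271 and 234 CPM (1.40 ± 0.16), and Foxa1 rose by 0.95 ± 0.12 and Eya1 by 1.47 ± 0.19. Of 20 stem and progenitor genes 9 rose and 2 fell, with Cd24a at 162, 191 and 191 CPM and then 307, 209 and 266 CPM (adjusted p = 0.00572) and Cd44 at 368 to 428 CPM and then 354 to 459 CPM (adjusted p = 0.928). Of 18 mesenchymal transition genes 1, Tgfbi, rose and 2, Vim and Mmp2, fell, 5.56% and 11.1% beside 14.0% and 11.0% over all genes. In all 3 the days overlapped and the call was lost without the block (adjusted p = 0.0988, 0.415 and 0.109).

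Skeletal muscle transcripts were among the largest falls. All 10 muscle markers were tested, 7 fell and none rose (median log2 -1.63). Their summed level was 193 to 559 CPM at day 5, 53.2 to 159 CPM at day 7 and 11.2 to 27.3 CPM at day 11, with the lowest value at each of days 5 and 7 in mTG11. The myosin light chain Mylpf had 55.5, 142 and 125 CPM and then 12.5, 25.9 and 40.3 CPM (log2 -2.04 ± 0.15), and titin (Ttn), embryonic myosin Myh3 and troponin Tnnc1 fell by 2.65 ± 0.25, 2.57 ± 0.29 and 2.86 ± 0.25. These markers name a cell type that the thyroid label does not include, and muscle lies beside the gland in the body. The part of other cells in the remaining results was not tested. The 16 tested fibroblast markers had none called, with a sum of 43.3 to 141 CPM at day 5 and 28.2 to 140 CPM at day 7 and mTG11 lowest at both days. A fit with the fibroblast score as a covariate called 2183 genes, 1361 of them higher. With it 25 of 48 mitosis genes, 17 of 44 replication genes and 28 of 45 ribosome biogenesis genes fell, and 22 of 34 hypoxia, 15 of 30 interferon-stimulated and 11 of 23 tight junction genes rose. Among genes named above, the calls lost with it included those of Areg, Ereg, Fosl1, Ovol2, Myc, Nqo1, Klk10, Ccng1, Crabp2, Cdkn1b, Itga6 and Mmp2. Vim was likewise lowest in mTG11 (15.9, 43.3 and 74.4 CPM, then 8.32, 15.7 and 56 CPM). Leukocyte markers summed to 8.11 to 21.7 CPM and then 23.6 to 38.1 CPM, with Cd68 higher (3.97, 8.03 and 5.56 CPM, then 21.3, 11.6 and 25.4 CPM), while Cd3e and Ms4a1 had 0 counts and Ptprc at most 0.276 CPM.

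Of the 15 largest rises and 15 largest falls not yet described, some belong to none of these groups. The lipoxygenase Alox15 had the largest rise under the rule for named genes (CPM of at least 10 on average and no overlap), from 3.32, 0.698 and 3.44 CPM to 72.2, 143 and 151 CPM, 46.2-fold (log2 5.53 ± 0.26, adjusted p = 1.26e-08). Tubulin β3 (Tubb3), known from neurons, had the largest fall, from 71.6, 68.6 and 65.6 CPM to 3.25, 2.48 and 3.31 CPM (log2 -4.51 ± 0.19, adjusted p = 4.45e-09), with every culture at nearly the same level on each day. The predicted gene Gm94 fell from 231, 177 and 238 CPM to 27.3, 11.6 and 22.9 CPM (log2 -3.41 ± 0.14) and had 0 counts at day 11. The protease inhibitor A2ml1 rose by 3.64 ± 0.16, from 8.26, 19.9 and 4.23 CPM to 116, 260 and 37.8 CPM. Tissue plasminogen activator (Plat) rose by 3.34 ± 0.35 and transglutaminase Tgm2 by 3.41 ± 0.26. Nlrp10 (4.29 ± 0.26) overlaps Eif3f on the opposite strand, U90926 rose by 3.64 ± 0.35, and the microRNA gene Mir6240 (3.63 ± 0.74) shared reads and lost its call with the fibroblast covariate. Thrombomodulin (Thbd) fell by 2.68 ± 0.23, the carboxypeptidase Cpa4 by 2.29 ± 0.29, the metallothionein of stratified epithelium Mt4 by 2.19 ± 0.25 and the late envelope gene Lce1d by 1.99 ± 0.37 on the log2 scale. The calls of Cpa4 (adjusted p = 0.0657) and Lce1d (0.0842) were lost with the fibroblast covariate. That of Lce1d was also lost with DESeq2 (0.0506), and its day 7 values were uneven (14.8, 1.66 and 4.14 CPM). The most abundant single rows were ribosomal RNA. The 18S row Rn18s-rs5 had 88644, 43383 and 41113 CPM at day 5 and 65897, 90315 and 90435 CPM at day 7 (adjusted p = 0.114), with the day 5 library of mTG11 apart from the other two. Leaving out the ribosomal RNA rows gave 4608 called genes.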

How the data were processed

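RNA of several unirradiated organoids per culture was sequenced with Smart3SEQ at days 5, 7 and 11. The authors deposited estimated counts per gene, of which 56.3% of the nonzero values were whole numbers. The submitters' processing notes name STAR, edgeR and GRCm39. The annotation, the counting rule and the handling of strand and molecular identifiers were not given in the sources used here. Estimated counts were rounded, because the planned test takes whole numbers, and reads shared by paralogs or by genes on opposite strands remained uncertain. Each count of 3 served as the limit for a count of 0.

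Genes with at least 10 counts over the 9 unirradiated libraries were tested with edgeR 4.0.16 (R 4.3.3), using TMM factors, a quasi-likelihood fit of the 3 days with the culture as replicate block, and Benjamini-Hochberg adjustment over all genes. The block was taken from the column names. Over 9562 genes, deviations from the day means correlated between days 5 and 7 by 0.211 to 0.347 within a culture. The average between cultures, -0.148, follows from these values, because deviations from a day mean cancel out over the cultures. It carries no further information on the block. Whether the cultures came from separate animals was not shown by the labels, so p-values measure the spread between these libraries. On simulated data of the same design with 18053 genes and 200 changed by 1 on the log2 scale, edgeR recovered 64% and DESeq2 53%. The simulated spread was larger than the fit's common value and far fewer genes were changed. These rates therefore do not carry over to the real comparison. Alternatives were DESeq2 1.42.0, other scaling, filters, samples and covariates, each library left out in turn and, chosen after seeing the data, a fit without ribosomal RNA rows. Tables and figures were made in Python 3.11.15.

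Named genes were the 15 largest rises and falls among called genes averaging 10 CPM or more whose days did not overlap, for each list up to 3 members with the smallest adjusted p in each direction and the most abundant member, the genes the study follows, the 5 most abundant genes and the 10 largest differences in CPM each way. Klhl14 and other list members, such as Krt7, Krt8, Krt18, Slc16a3, Car9, Ero1a, Isg15, Ifit1 and Irf7, and the hypoxia and interferon motifs were chosen after their values were seen. The comparison and the gene lists were chosen with earlier results of these data known. Promoter windows came from RefSeq (GRCm38.p6) and were matched by symbol. Some genes are not reported here.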

Additional observations from a re-analysis of the deposited data

How the results depend on the processing

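DESeq2 called 2667 genes, 1503 higher and 1164 lower at day 7, against 4607, 2579 and 2028 with edgeR, and gave no adjusted p for 3933 genes. With the fibroblast score as a covariate 2183 genes were called, 1361 higher and 822 lower. Without TMM factors 3123 genes were lower and 1805 higher. Without the replicate block 3986 genes were called, 2211 higher and 1775 lower. Leaving out 1 library at a time gave 3159 to 3841 called genes, 1864 to 2222 higher and 1295 to 1619 lower, the lowest without mTG14 of day 5, and 1335 were lower without mTG14 of day 7. The cause of these differences was not tested. The other settings stayed within 1.5 times of each of the 3 counts.

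Of 237 named genes called by edgeR, 171 kept their call and direction under every alternative run and 66 lost the call in at least 1, among them 54 with the fibroblast covariate, 23 without the replicate block, 22 with DESeq2 and 10 without TMM factors. No named gene reversed a call. Without TMM factors the median changed sign for thyroid function genes, CDK inhibitors, EGF ligands, Wnt, stress keratins, cholesterol, fatty acid and ATF4 genes, whose medians lay near 0. Depth limited genes near 3 counts, among them the interferon-stimulated and multiciliated cell genes.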
